A study of Mus musculus with 20 samples.

Results

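The collagen genes were described in 6 polyA RNA libraries of microdissected mouse brain tissue, taken as the 43 genes of 34620 in the count tables whose symbol has the form of Col, a type number, a and a chain number. The rule uses the symbol alone. The part of the study analysed here compared RNA between stages and regions of the brain, and its other 14 samples, of bisulfite sequencing, were not analysed here. Tissue of striatal precursors (SP), hippocampal precursors (HP), young medial spiny neurons of the striatum (yMSN) and young hippocampal CA pyramidal neurons (yCA) gave 1 library each, and dorsal medial spiny neurons (dMSN) gave 2. All 6 libraries carry the labels wild type, male and C57BL/6, and name no transgene, treatment or age, and nothing says that the dMSN libraries came from separate animals. Brains were frozen and dissected from sections, so each library holds every cell type of the dissected tissue, and fewer cells of a type and less RNA per cell cannot be told apart in it.

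Collagens are extracellular proteins whose chains wind into a triple helix. Fibrillar collagens pack into the rope-like fibrils of connective tissue, network-forming collagens build the sheet of the basement membrane, fibril-associated collagens coat or link fibrils, and transmembrane collagens stay anchored in the cell that makes them. In the brain, collagen is known mainly from the meninges and from the basement membranes of blood vessels and of the pial surface, with little in the neuronal tissue itself, while bone, cartilage, skin and muscle hold far more. Chains are hydroxylated and folded by dedicated enzymes and chaperones before secretion, trimmed by proteases outside the cell and crosslinked by lysyl oxidases.

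Total gene counts were between 31282185 and 36969136 in the 4 precursor and young libraries, against 152347673 in dMSN 1 and 145713678 in dMSN 2. Levels are CPM, counts scaled to library size after TMM scaling. Several libraries hold RNA that their labels do not name. Xist, which coats the inactive X of females, was at 1087 CPM in SP, 857 in HP, 489 in yMSN and 762 in yCA, although all carry the label male, and no read of Ddx3y, Kdm5d or Eif2s3y, genes of the Y chromosome, was counted in SP or yCA. Uty, also a Y gene, had 17 reads in SP and 14 in yCA. HP and yMSN held Y genes beside Xist, with Ddx3y at 7.81 CPM in HP and 20.2 in yMSN. The summed level of 12 skeletal muscle markers was 16.5 CPM in SP, 19.8 in HP, 2413 in yMSN, 6607 in yCA, 42.1 in dMSN 1 and 47.9 in dMSN 2, and in yMSN and yCA none of the 12 was at 0. The 10 bone markers summed to 618 CPM in yMSN and to between 15.0 and 52.2 CPM in the other 5 libraries. The 8 olfactory mucosa markers summed to 634 CPM in yMSN, 182 in yCA, 399.9 in dMSN 1 and 395 in dMSN 2. Without Gnal, which striatal neurons express too, the sums were 489 CPM in yMSN, 17.8 in yCA, 8.56 in dMSN 1 and 7.42 in dMSN 2, and at most 0.856 CPM in the precursors. The 7 epidermis markers summed to 418 CPM in yMSN and 299.9 in yCA. Of 9 striatal neuron markers, none was at least 2-fold higher in yMSN than in yCA, and of 6 pallial neuron markers 2 were at least 2-fold lower. In dMSN the striatal markers summed to 5957 and 6031 CPM, against 542 in yMSN. The part these differences play in the collagen results was not tested. Each comparison of single libraries rests on 2 of the 4 libraries with high Xist and cannot be made without them.

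Of all gene counts, collagen transcripts made up 0.436% in SP, 0.469% in HP, 2.20% in yMSN, 0.451% in yCA, 0.0249% in dMSN 1 and 0.0233% in dMSN 2. The yMSN library stood apart from the other 5, SP, HP and yCA lay close together, and both dMSN libraries were far below. All 43 members had reads in every library and passed the filter on low counts, and 35 reached 10 CPM somewhere. The median member stood at 19.7 CPM in SP, 15.1 in HP, 64.1 in yMSN, 23.7 in yCA, 2.21 in dMSN 1 and 2.36 in dMSN 2. The yMSN library held the highest value of the 6 for 33 members (76.7%), where it held the highest value for 14.2% of all 19192 genes tested. HP was highest for 4 members (Col2a1, Col9a1, Col18a1 and Col23a1), SP for Col4a5 and Col4a6, yCA for Col19a1 and Col28a1, and a dMSN library for Col25a1 and Col6a4. Both dMSN libraries lay below the other 4 for 28 members (65.1%), against 34.0% of all genes, and above the other 4 for Col25a1 and Col6a4 alone among the members (4.65%), against 36.6% of all genes. Reads were not divided by transcript length, so levels are set side by side between libraries and not between genes.

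**Figure D1:**
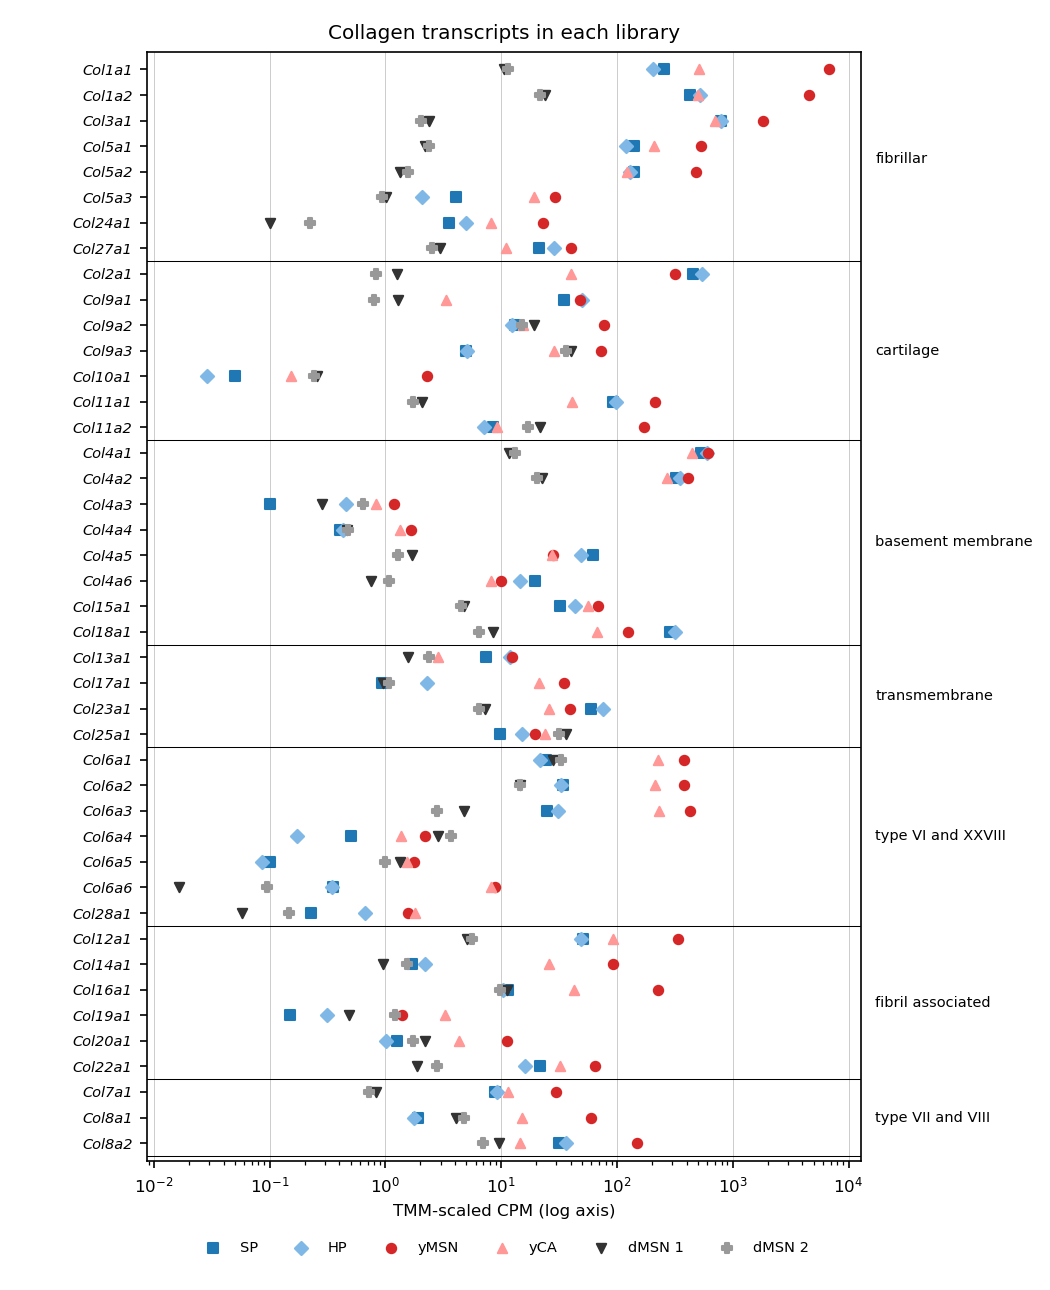
Level of each of the 43 collagen genes in TMM-scaled CPM on a log axis, 1 point per library, with genes grouped by class down the page. The yMSN points lie furthest right for 33 genes, with Col1a1 at 6722 CPM, and both dMSN points lie left of the other 4 for 28 genes.

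The make-up of the collagen reads differed as well. Members were put into 7 classes, and the fibril-forming chains Col2a1, Col11a1 and Col11a2 were put in the cartilage class, so the fibrillar class leaves them out. Chains of the fibrillar class took 45.4% in SP, 42.6% in HP, 76.2% in yMSN, 50.9% in yCA, 14.1% in dMSN 1 and 14.6% in dMSN 2 of the collagen counts. Their share was highest in yMSN and lowest in dMSN. With the fibril-forming chains of cartilage added, the share was 59.4% in SP, 58.1% in HP, 80.0% in yMSN, 53.1% in yCA, 22.0% in dMSN 1 and 21.2% in dMSN 2, still highest in yMSN and lowest in dMSN, with yCA then below both precursors. Basement membrane chains took 31.8% in SP, 32.7% in HP, 6.75% in yMSN, 21.4% in yCA, 16.0% in dMSN 1 and 16.3% in dMSN 2, and here both precursors were highest and yMSN lowest. Transmembrane chains took 14.6% in dMSN 1 and 14.1% in dMSN 2 and at most 2.48% in the other 4 libraries. Type VI and XXVIII chains took 2.14% in SP and 2.07% in HP, 6.43% in yMSN, 16.6% in yCA, and 16.5% and 18.7% in dMSN 1 and dMSN 2. Cartilage chains took 15.4% in SP, 17.1% in HP, 4.84% in yMSN, 3.37% in yCA, 27.4% in dMSN 1 and 24.4% in dMSN 2, lowest in the young libraries. Since the total is so low in dMSN, a larger share there is still a smaller level: cartilage chains were 0.00682% and 0.00570% of all gene counts in the dMSN libraries, against 0.106% in yMSN. Longer transcripts give more reads, so these shares compare libraries and not the abundance of classes within one.

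**Figure D2:**
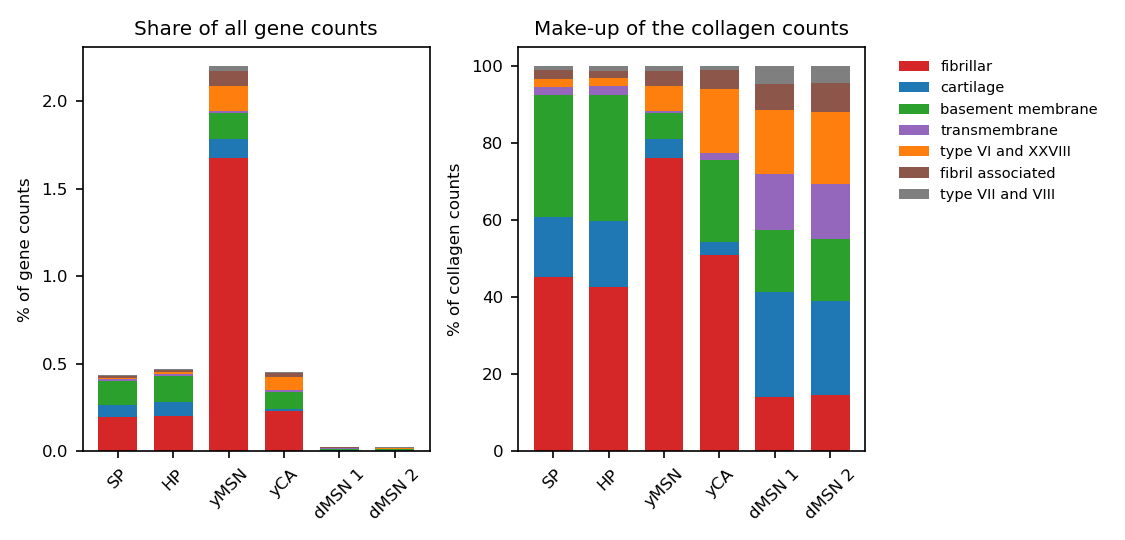
Collagen counts of each class stacked by library, as a percent of all gene counts on the left and as a percent of the collagen counts on the right. The yMSN column reaches 2.20% of gene counts, most of it red for the fibrillar class, and in dMSN the cartilage, transmembrane and type VI segments are wide while the column at left is barely visible.

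The fibrillar class, without Col2a1, Col11a1 and Col11a2, had 8 members, and yMSN was the highest library for all of them. Type I collagen, the main fibril of bone, tendon and skin, is built from the chains of Col1a1 and Col1a2. Col1a1 had 257 CPM in SP, 204 in HP, 6722 in yMSN, 506 in yCA, 10.7 in dMSN 1 and 11.4 in dMSN 2. Col1a2 had 427 CPM in SP, 517 in HP, 4595 in yMSN, 505 in yCA, 23.7 in dMSN 1 and 21.6 in dMSN 2. For both genes yMSN lay far above every other library and the dMSN pair at the bottom, while SP, HP and yCA lay together for Col1a2 and yCA above both precursors for Col1a1. Col3a1, the chain of type III collagen of vessel walls and meninges and in mouse a ligand of the receptor Gpr56 in the developing cortex, stood at 792 CPM in SP, 789 in HP, 1837 in yMSN, 709 in yCA, 2.39 in dMSN 1 and 2.04 in dMSN 2. It differed little among SP, HP and yCA, was higher in yMSN and was near 0 in dMSN.

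Type V collagen sits inside type I fibrils and sets their diameter. Its chain gene Col5a1 had 139.6 CPM in SP, 119.9 in HP, 529 in yMSN, 209 in yCA, 2.19 in dMSN 1 and 2.36 in dMSN 2. Col5a2 had 141 CPM in SP, 129 in HP, 482 in yMSN, 123 in yCA, 1.33 in dMSN 1 and 1.58 in dMSN 2. Both were highest in yMSN, with dMSN at the bottom, but yCA lay above the precursors for Col5a1 and just below them for Col5a2. Col5a3, which gives a further chain, had 4.05 CPM in SP, 2.07 in HP, 28.9 in yMSN, 19.4 in yCA, 1.01 in dMSN 1 and 0.941 in dMSN 2, so that both young libraries lay above both precursors. Of the minor fibrillar collagens, Col24a1, known in mouse from developing bone and cornea, had 3.55 CPM in SP, 4.94 in HP, 23.0 in yMSN, 8.17 in yCA, 0.0997 in dMSN 1 and 0.224 in dMSN 2. Col27a1, a cartilage fibrillar collagen, had 21.4 CPM in SP, 28.7 in HP, 40.4 in yMSN, 11.1 in yCA, 2.98 in dMSN 1 and 2.55 in dMSN 2, and yCA lay below both precursors for it while yMSN lay above.

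The upstream sequences of Col1a2 and Col3a1 are shown because these genes carried much of the fibrillar signal and differed in the same direction between yMSN and the other libraries. RefSeq, in the GRCm38.p6 build, places the 250 bases before the Col1a2 start at chr6:4505368-4505617 on the plus strand and those before the Col3a1 start at chr1:45311288-45311537 on the plus strand. Capitals mark every match, on either strand, to a TATA box (TATAAA), a motif known as the CCAAT box, or a GC box (GGGCGG), with every overlapping match kept.
Col1a2: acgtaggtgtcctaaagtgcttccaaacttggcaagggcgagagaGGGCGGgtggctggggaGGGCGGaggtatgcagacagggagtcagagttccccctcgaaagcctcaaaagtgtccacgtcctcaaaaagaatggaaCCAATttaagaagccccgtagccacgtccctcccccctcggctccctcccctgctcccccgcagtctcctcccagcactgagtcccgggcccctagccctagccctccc
Col3a1: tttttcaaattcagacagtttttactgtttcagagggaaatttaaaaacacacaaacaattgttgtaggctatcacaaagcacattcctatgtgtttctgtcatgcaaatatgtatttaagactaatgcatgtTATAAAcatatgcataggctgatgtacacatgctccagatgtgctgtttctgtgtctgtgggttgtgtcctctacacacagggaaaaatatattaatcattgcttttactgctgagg
Col1a2 holds 1 CCAAT and 2 GGGCGG matches, and Col3a1 holds 1 TATAAA match. Promoter entries matched 35 of the 43 members, with 38 windows. Col12a1, Col14a1, Col1a1, Col22a1, Col2a1, Col4a3, Col5a2 and Col9a3 had no entry. GGGCGG occurred in 22 of the 38 windows (57.9%), against 32.7% of all 32851 windows of the same length in the table. CCAAT occurred in 13 (34.2%, against 33.8%) and TATAAA in 5 (13.2%, against 12.4%). A match of letters is a description and not a site in use.

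The cartilage class had 7 members, and they did not share one pattern. Col2a1, the chain of type II collagen, the main fibril of cartilage, which is also known from the early mouse neural tube, had 451 CPM in SP, 546 in HP, 320.2 in yMSN, 40.3 in yCA, 1.26 in dMSN 1 and 0.837 in dMSN 2. It was highest in the precursors, slightly lower in yMSN, far lower in yCA and lowest in dMSN. Type XI collagen, which forms the core of cartilage fibrils, uses Col11a1 and Col11a2. Col11a1 had 92.6 CPM in SP, 97.8 in HP, 214 in yMSN, 40.9 in yCA, 2.06 in dMSN 1 and 1.73 in dMSN 2. Col11a2 had 8.51 CPM in SP, 7.12 in HP, 170.0 in yMSN, 9.23 in yCA, 21.8 in dMSN 1 and 17.0 in dMSN 2. Both peaked in yMSN, but dMSN was lowest for Col11a1 and above SP, HP and yCA for Col11a2.

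Type IX collagen coats the type II fibril and has a chain each from Col9a1, Col9a2 and Col9a3. Col9a1 had 34.7 CPM in SP, 49.8 in HP, 48.2 in yMSN, 3.37 in yCA, 1.27 in dMSN 1 and 0.803 in dMSN 2, where yMSN lay among the precursors and yCA and dMSN were low. Col9a2 had 13.04 CPM in SP, 12.3 in HP, 76.7 in yMSN, 15.5 in yCA, 19.2 in dMSN 1 and 15.1 in dMSN 2, where yMSN stood alone and the other 5 libraries lay close together. Col9a3 had 4.98 CPM in SP, 5.11 in HP, 73.5 in yMSN, 28.8 in yCA, 40.5 in dMSN 1 and 35.9 in dMSN 2, where the dMSN libraries lay between yCA and yMSN and the precursors were lowest. Col10a1, known from hypertrophic cartilage, was at 2.28 CPM in yMSN and at no more than 0.258 CPM elsewhere. Among the 11 cartilage markers that are not collagens, Acan, the proteoglycan aggrecan, had 1.33 CPM in SP, 0.345 in HP, 41.0 in yMSN, 2.21 in yCA, 6.69 in dMSN 1 and 5.36 in dMSN 2. Sox9 had 105 CPM in SP, 112 in HP, 44.3 in yMSN and 45.1 in yCA. Hapln1 had 54.3 CPM in SP, 62.8 in HP, 25.5 in yMSN and 2.08 in yCA. Of 10 markers at 1 CPM, 7 were at least 2-fold higher in yMSN than in SP and 2 at least 2-fold lower. The 11 together summed to 169 CPM in SP, 181 in HP, 196 in yMSN, 53.9 in yCA, 91.0 in dMSN 1 and 86.4 in dMSN 2. Sox9 and Hapln1 made up most of that sum in SP and HP, but not in yMSN. The median marker was at 0.654 CPM in SP, 0.316 in HP, 9.87 in yMSN, 0.540 in yCA, 1.87 in dMSN 1 and 1.74 in dMSN 2.

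The windows before Col11a1 and Col11a2 are shown because these partners of one collagen type ranked the dMSN libraries differently against the precursors. They lie at chr3:114030290-114030539 on the plus strand and at chr17:34038888-34039137 on the plus strand in GRCm38.p6 (RefSeq), and capitals mark the motifs named above.
Col11a1: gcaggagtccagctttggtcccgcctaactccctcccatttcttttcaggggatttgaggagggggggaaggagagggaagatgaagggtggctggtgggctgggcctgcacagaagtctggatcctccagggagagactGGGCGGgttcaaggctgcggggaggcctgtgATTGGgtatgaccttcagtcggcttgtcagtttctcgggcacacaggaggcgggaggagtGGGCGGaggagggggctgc
Col11a2: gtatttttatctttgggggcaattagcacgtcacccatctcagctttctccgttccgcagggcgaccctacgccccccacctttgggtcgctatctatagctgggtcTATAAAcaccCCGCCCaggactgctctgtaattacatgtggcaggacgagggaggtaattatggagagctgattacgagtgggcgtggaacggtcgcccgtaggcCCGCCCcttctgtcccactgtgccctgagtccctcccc
Both hold 2 GGGCGG matches, Col11a1 also holds 1 CCAAT and Col11a2 also holds 1 TATAAA.

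The basement membrane class had 8 members. Col4a1 and Col4a2 give the chains of the common type IV network. Col4a1 had 528 CPM in SP, 602 in HP, 613 in yMSN, 448 in yCA, 11.7 in dMSN 1 and 13.05 in dMSN 2. Col4a2 had 324 CPM in SP, 353 in HP, 414 in yMSN, 270.0 in yCA, 22.4 in dMSN 1 and 20.2 in dMSN 2. For both genes the 4 precursor and young libraries lay within 2-fold of each other and the dMSN libraries far below. Col4a5 and Col4a6, X-linked chains of particular basement membranes such as those of kidney and smooth muscle, were highest in the precursors. Col4a5 had 62.0 CPM in SP, 48.7 in HP, 28.2 in yMSN, 27.7 in yCA, 1.70 in dMSN 1 and 1.29 in dMSN 2. Col4a6 had 19.7 CPM in SP, 14.6 in HP, 10.03 in yMSN, 8.20 in yCA, 0.756 in dMSN 1 and 1.08 in dMSN 2. In each case the order ran from SP through HP to the young libraries and then dMSN.

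Col15a1, a collagen of capillary and muscle basement membranes, had 32.1 CPM in SP, 43.2 in HP, 69.2 in yMSN, 56.1 in yCA, 4.80 in dMSN 1 and 4.53 in dMSN 2, with both young libraries above both precursors and dMSN far below all 4. Col18a1, whose tail is the angiogenesis inhibitor endostatin, had 287 CPM in SP, 315 in HP, 125 in yMSN, 67.4 in yCA, 8.54 in dMSN 1 and 6.41 in dMSN 2, with both precursors above both young libraries. Col4a3 and Col4a4, chains of the kidney filter, stayed between 0.101 and 1.66 CPM in all libraries.

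Col4a1 and Col4a2 lie head to head: the RefSeq start sites in GRCm38.p6 are 21 bases apart on opposite strands, and those of Col4a5 and Col4a6 are 1343 bases apart. The 5′ ends of the first pair overlap. No strand setting of the counting is given in the sources used here, so reads from that overlap cannot be told apart.

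The 4 transmembrane members each had a pattern of their own. Col25a1, a neuronal collagen that mouse motor neurons need to innervate muscle, had 9.72 CPM in SP, 15.1 in HP, 19.4 in yMSN, 23.7 in yCA, 36.1 in dMSN 1 and 31.3 in dMSN 2. Both dMSN libraries lay above the other 4, and SP was lowest. Col23a1 had 59.7 CPM in SP, 75.0 in HP, 39.4 in yMSN, 25.9 in yCA, 7.31 in dMSN 1 and 6.49 in dMSN 2, with the precursors on top and dMSN at the bottom. Col17a1, part of the hemidesmosomes that tie skin epithelium to its basement membrane, had 0.931 CPM in SP, 2.30 in HP, 35.1 in yMSN, 21.3 in yCA, 0.956 in dMSN 1 and 1.07 in dMSN 2, so that it was high in the young libraries only. The 7 epidermis markers summed to 418 CPM in yMSN and 299.9 in yCA, against 15.1 in SP, 29.5 in HP, 39.7 in dMSN 1 and 33.6 in dMSN 2. In dMSN most of that sum was Krt10, which ran the other way. It was at 37.9 CPM in dMSN 1 and 32.7 in dMSN 2, against 10.3 in yMSN and 6.25 in yCA. The part of the epidermis markers in the Col17a1 level was not tested. Col13a1, a collagen of the neuromuscular junction, had 7.32 CPM in SP, 12.0 in HP, 12.5 in yMSN, 2.83 in yCA, 1.56 in dMSN 1 and 2.36 in dMSN 2, with yCA near dMSN and yMSN near HP.

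The window before Col25a1 is shown because Col25a1 was the one member at 10 CPM in any library whose dMSN libraries lay above the other 4. It lies at chr3:130180595-130180844 on the plus strand (GRCm38.p6, RefSeq) and holds 1 CCAAT and 2 GGGCGG matches.
Col25a1: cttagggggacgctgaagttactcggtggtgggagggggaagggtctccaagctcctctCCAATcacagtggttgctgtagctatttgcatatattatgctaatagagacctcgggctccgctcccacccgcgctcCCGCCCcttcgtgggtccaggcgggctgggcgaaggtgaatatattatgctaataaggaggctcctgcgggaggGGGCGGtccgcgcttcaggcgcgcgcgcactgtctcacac

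Type VI collagen forms beaded microfibrils around muscle fibres and in many connective tissues, with Col6a1, Col6a2 and Col6a3 as its main chains. Col6a1 had 24.4 CPM in SP, 21.6 in HP, 380.4 in yMSN, 224 in yCA, 28.3 in dMSN 1 and 32.6 in dMSN 2. Col6a2 had 34.0 CPM in SP, 33.1 in HP, 376 in yMSN, 213 in yCA, 14.7 in dMSN 1 and 14.5 in dMSN 2. Col6a3 had 24.7 CPM in SP, 31.2 in HP, 431 in yMSN, 230.4 in yCA, 4.80 in dMSN 1 and 2.80 in dMSN 2. For all 3 genes both young libraries lay far above both precursors, and yMSN lay above yCA by less than 2-fold. The dMSN libraries were below the precursors for Col6a2 and Col6a3 and just above them for Col6a1. The alternative chains Col6a4, Col6a5 and Col6a6 and the related Col28a1 stayed below 10 CPM everywhere. Col6a6 was at 8.81 CPM in yMSN and 8.12 in yCA and at no more than 0.352 CPM in the other 4. Col6a4 was at 2.86 and 3.70 CPM in dMSN, against 2.19 in yMSN and 1.36 in yCA.

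Of the 6 fibril-associated members, Col12a1, a collagen of tendon and other dense tissue, had 51.2 CPM in SP, 48.8 in HP, 339 in yMSN, 91.7 in yCA, 5.04 in dMSN 1 and 5.57 in dMSN 2. Col14a1, found with type I fibrils in tendon and skin, had 1.69 CPM in SP, 2.21 in HP, 92.3 in yMSN, 26.1 in yCA, 0.948 in dMSN 1 and 1.54 in dMSN 2. Col16a1 had 11.6 CPM in SP, 10.3 in HP, 225 in yMSN, 42.4 in yCA, 11.2 in dMSN 1 and 9.76 in dMSN 2. All 3 peaked in yMSN with yCA second, and dMSN was below the precursors for Col12a1 and Col14a1 and close to them for Col16a1. Col22a1, known from the junction of muscle and tendon, had 21.5 CPM in SP, 16.2 in HP, 64.1 in yMSN, 32.1 in yCA, 1.86 in dMSN 1 and 2.80 in dMSN 2. Col20a1 had 1.26 CPM in SP, 1.00 in HP, 11.1 in yMSN, 4.34 in yCA, 2.21 in dMSN 1 and 1.74 in dMSN 2. Both followed the same order among the young libraries and precursors. Col19a1, which mouse hippocampal interneurons use in synapse formation, was the exception, at 1.38 CPM in yMSN and 3.29 in yCA.

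Of the remaining network formers, Col7a1, the anchoring fibril collagen of skin, had 8.78 CPM in SP, 9.27 in HP, 30.0 in yMSN, 11.4 in yCA, 0.831 in dMSN 1 and 0.725 in dMSN 2. Col8a1, a collagen of vessel walls and the cornea, had 1.91 CPM in SP, 1.75 in HP, 59.4 in yMSN, 15.0 in yCA, 4.10 in dMSN 1 and 4.76 in dMSN 2. Its partner Col8a2 had 31.9 CPM in SP, 36.5 in HP, 148 in yMSN, 14.5 in yCA, 9.55 in dMSN 1 and 7.02 in dMSN 2. The yMSN library was highest for all 3, and yCA was above the precursors for Col7a1 and Col8a1 and below them for Col8a2.

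The yMSN and yCA libraries address whether young tissue of the 2 regions differs. Each group is 1 library, so the difference has no replicate check of its own. No test was made, and a member was counted when the ratio of its levels reached 2-fold and the higher library held at least 1 CPM. Of 43 members, 22 were at least 2-fold higher in yMSN (51.2%), where 11.7% of the 15426 genes at that level were, and 1 was at least 2-fold lower (2.33%, against 2.55% of genes). The lower one was Col19a1, with a log2 ratio of -1.22 (95% interval -1.72 to -0.80). The median log2 ratio of the members was 1.34, beside -0.0061 over all genes at 1 CPM, and 40 members lay above 0.

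The classes differed in this. All 7 cartilage members, 7 of 8 fibrillar members (all but Col5a3), all 3 type VII and VIII members and 4 of 6 fibril-associated members were at least 2-fold higher in yMSN. None of 8 basement membrane members and none of 7 type VI and XXVIII members was. Among transmembrane members Col13a1 was, with a log2 ratio of 2.13 (95% interval 1.85 to 2.45). Col11a2 stood 18.3-fold higher in yMSN, with a log2 ratio of 4.20 (95% interval 4.05 to 4.36). Col9a1 stood 14.1-fold higher, Col1a1 13.3-fold, Col8a2 10.2-fold, Col1a2 9.10-fold and Col2a1 7.94-fold. Col4a1, by contrast, had a log2 ratio of 0.45 (95% interval 0.43 to 0.48) and Col6a1 one of 0.76 (95% interval 0.73 to 0.80). The intervals cover counting error only, and the spread between animals is unknown. Col22a1, at 2.00-fold after rounding, was just short of the 2-fold count, and Col5a1, at 2.53-fold, was the nearest inside it.

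Markers of other tissues differed between the same libraries. All 8 bone markers at 1 CPM were at least 2-fold higher in yMSN, with Ibsp, a protein of mineralised matrix, at 322 CPM in yMSN and 1.98 in yCA. Of the cartilage markers 9 of 10 were, of the meninges and fibroblast markers, which summed to 773 CPM in yMSN and 259 in yCA, 8 of 11, and of the olfactory mucosa markers 7 of 8. Skeletal muscle ran the other way, with 11 of 12 markers at least 2-fold lower in yMSN, and 1 of 12 endothelial and pericyte markers was at least 2-fold higher. The part of these tissues in the collagen difference was not tested.

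**Figure D3:**
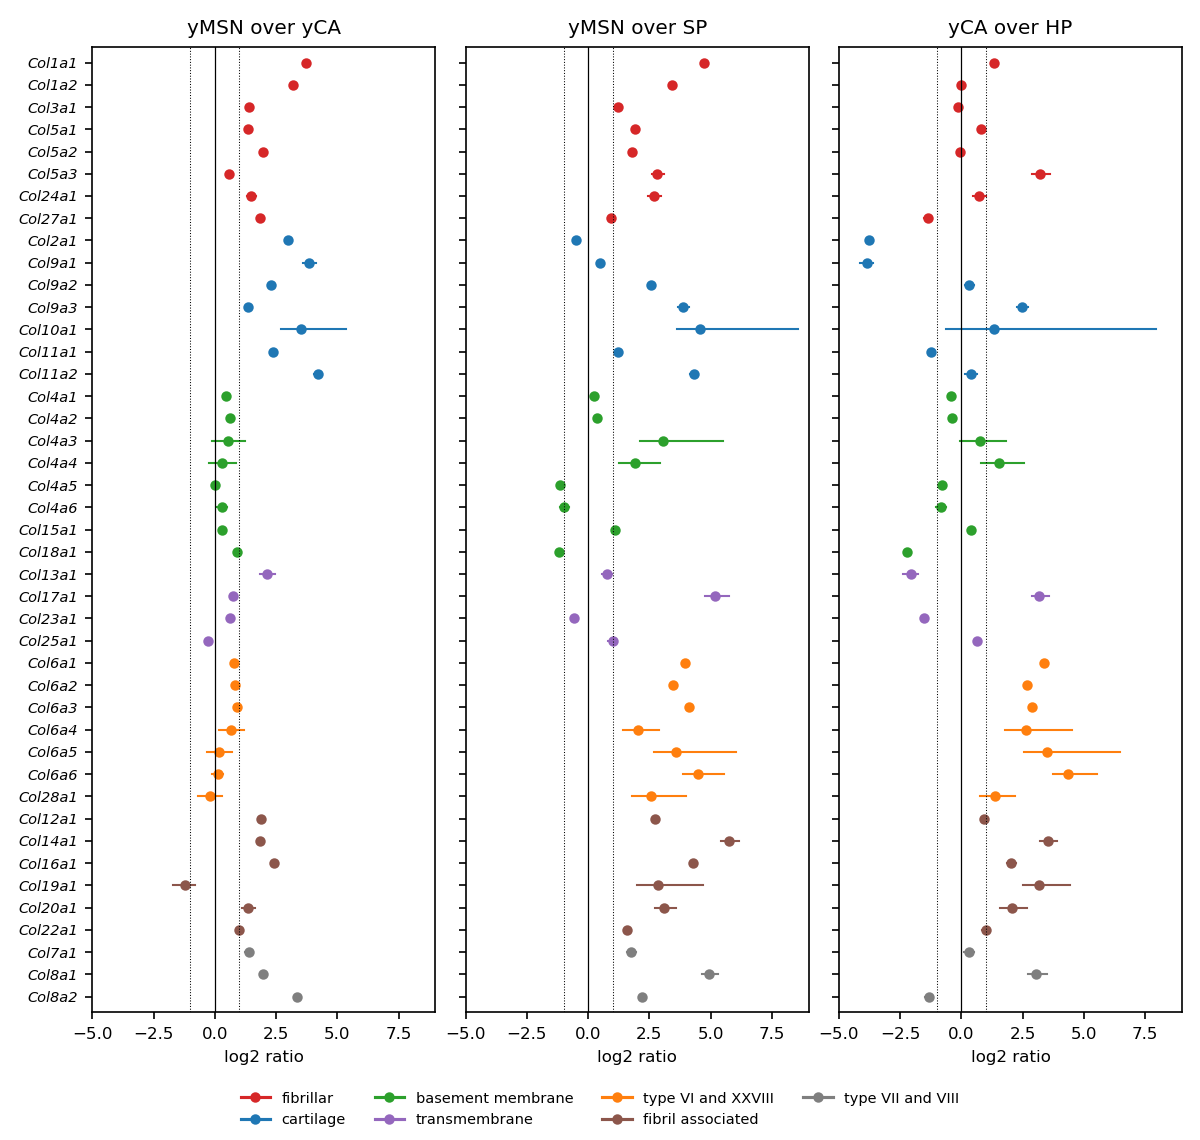
log2 ratio of each collagen gene in the 3 pairs of single libraries (points) with its exact 95% counting interval (bars), a solid line at 0 and dotted lines at 2-fold in either direction. In the left panel the fibrillar and cartilage points lie right of the 2-fold line apart from Col5a3, while the green basement membrane and orange type VI points lie between the lines; in the middle and right panels the orange points lie right of the line.

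The young libraries were set against the precursors of their own region in the same way. In yMSN against SP, 32 of 43 members were at least 2-fold higher in yMSN (74.4%), beside 25.1% of genes, and Col4a5 and Col18a1 were at least 2-fold lower (4.65%, beside 9.46%). In yCA against HP, 17 of 41 members at 1 CPM were at least 2-fold higher in yCA (41.5%), beside 23.4% of genes, and 8 were at least 2-fold lower (19.5%, beside 14.3%). The 8 were Col2a1, Col8a2, Col9a1, Col11a1, Col13a1, Col18a1, Col23a1 and Col27a1. Type VI and XXVIII members were at least 2-fold higher in both pairs, 7 of 7 each. Col6a1 was 15.6-fold higher in yMSN than in SP and 10.4-fold higher in yCA than in HP. Col17a1 was 35.9-fold and 9.06-fold higher in the same pairs, and Col14a1 53.2-fold and 11.5-fold.

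Cartilage members differed between the pairs. Of 7, 5 were at least 2-fold higher in yMSN than in SP and none lower, while of 6 at 1 CPM in yCA or HP, 1 was at least 2-fold higher in yCA and 3 lower. Col11a1 had a log2 ratio of 1.21 (95% interval 1.15 to 1.26) for yMSN over SP and -1.26 (95% interval -1.35 to -1.17) for yCA over HP. Col9a1 had 0.47 (95% interval 0.38 to 0.57) and -3.87 (95% interval -4.16 to -3.63). Col2a1 had -0.49 (95% interval -0.53 to -0.46) and -3.76 (95% interval -3.84 to -3.69), lower in the young library both times. Of the 41 members at 1 CPM in both pairs, 10 were higher in yMSN than in SP and lower in yCA than in HP with both counting intervals clear of 0 (24.4%, beside 5.52% of genes), and none ran the other way, beside 3.69% of genes. These intervals narrow as reads grow, so genes with many reads clear 0 at small differences. Col1a2, Col5a2 and Col3a1 are among the 10 with log2 ratios of only -0.035, -0.067 and -0.15 for yCA over HP. Whether the pairs differ was not tested.

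A model with region and stage over all 6 libraries joined both pairs into 1 test of young against precursor tissue, with 2 residual degrees of freedom. By edgeR's quasi-likelihood test with Benjamini-Hochberg adjustment, 20 of 43 members rose (46.5%, beside 21.7% of the 19192 genes tested), 3 fell (6.98%, beside 13.7%) and 20 did not pass. The median log2 change of the members was 1.71, beside 0.10 over all genes. Over all genes 61.3% of the calls were higher, and with DESeq2 51.2%. DESeq2 called 24 members higher and 5 lower, beside 20.7% and 19.7% of genes.

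Nearly all type VI and fibril-associated chains rose. Of 7 type VI and XXVIII members 6 rose, and Col28a1 had 2.06 and did not pass (adjusted p = 0.053). Col6a1 rose by 3.67 (SE 0.219, adjusted p = 0.0014), Col6a2 rose by 3.08 (SE 0.238, adjusted p = 0.0020) and Col6a3 rose by 3.51 (SE 0.422, adjusted p = 0.0044). All 6 fibril-associated members rose, among them Col14a1, which rose by 4.67 (SE 0.643, adjusted p = 0.0061), and Col12a1, which rose by 1.82 (SE 0.446, adjusted p = 0.030). Col17a1 of the hemidesmosome rose by 4.19 (SE 0.563, adjusted p = 0.0057) and Col25a1 rose by 0.82 (SE 0.201, adjusted p = 0.029).

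Of 8 fibrillar members Col5a1 and Col5a3 rose and 6 did not pass. Col5a3 rose by 3.03 (SE 0.269, adjusted p = 0.0025). Col1a1, with 3.01 (SE 0.894, adjusted p = 0.051), just missed the threshold, and Col1a2 had 1.70 (adjusted p = 0.195). In this model the difference between yMSN and yCA in their step from the precursors counts as spread, and for Col1a1 the log2 ratio was 4.71 (95% interval 4.68 to 4.74) for yMSN over SP and 1.31 (95% interval 1.27 to 1.35) for yCA over HP. Of 7 cartilage members Col9a3 and Col10a1 rose and 5 did not pass. Of 8 basement membrane members Col4a4 rose, Col18a1 fell by 1.71 (SE 0.303, adjusted p = 0.012) and Col4a5 fell by 0.98 (SE 0.210, adjusted p = 0.020), and 5 did not pass, Col4a1 with -0.10 among them. Among the transmembrane members Col23a1 fell by 1.07 (SE 0.262, adjusted p = 0.030). Of 3 type VII and VIII members Col8a1 rose.

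The counts depend on which libraries are fitted. Without HP or yCA the change comes from yMSN over SP alone, and without SP or yMSN from yCA over HP alone. The spread then comes from the dMSN pair, so these fits are not the joint test with 1 library less. The fits without a dMSN library keep both pairs. Without HP, 34 members were higher and 2 lower, beside 24.0% and 12.0% of genes. Without yCA, 34 members were higher and 4 lower, beside 22.1% and 15.1% of genes. Without SP, 18 members were higher and 9 lower, beside 22.4% and 15.7% of genes. Without yMSN, 18 members were higher and 9 lower of 42 tested, beside 22.8% and 16.4% of genes. Without dMSN 1, 14 members were higher and 2 lower, beside 12.5% and 6.3% of genes. Without dMSN 2, 15 members were higher and 2 lower, beside 12.7% and 6.43% of genes. With all 6 libraries, 12 of 12 skeletal muscle markers rose, as did 6 of 8 olfactory mucosa markers and 5 of 7 epidermis markers, and all 6 neural precursor markers fell. Other lists mostly did not pass. Of 9 bone markers tested 1 rose, and of 12 endothelial and pericyte markers 5 rose. Of 11 cartilage markers 3 rose and 1 fell, as of 11 meninges and fibroblast markers. Over all genes 21.7% rose and 13.7% fell. Their part in the collagen changes was not tested.

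**Figure D4:**
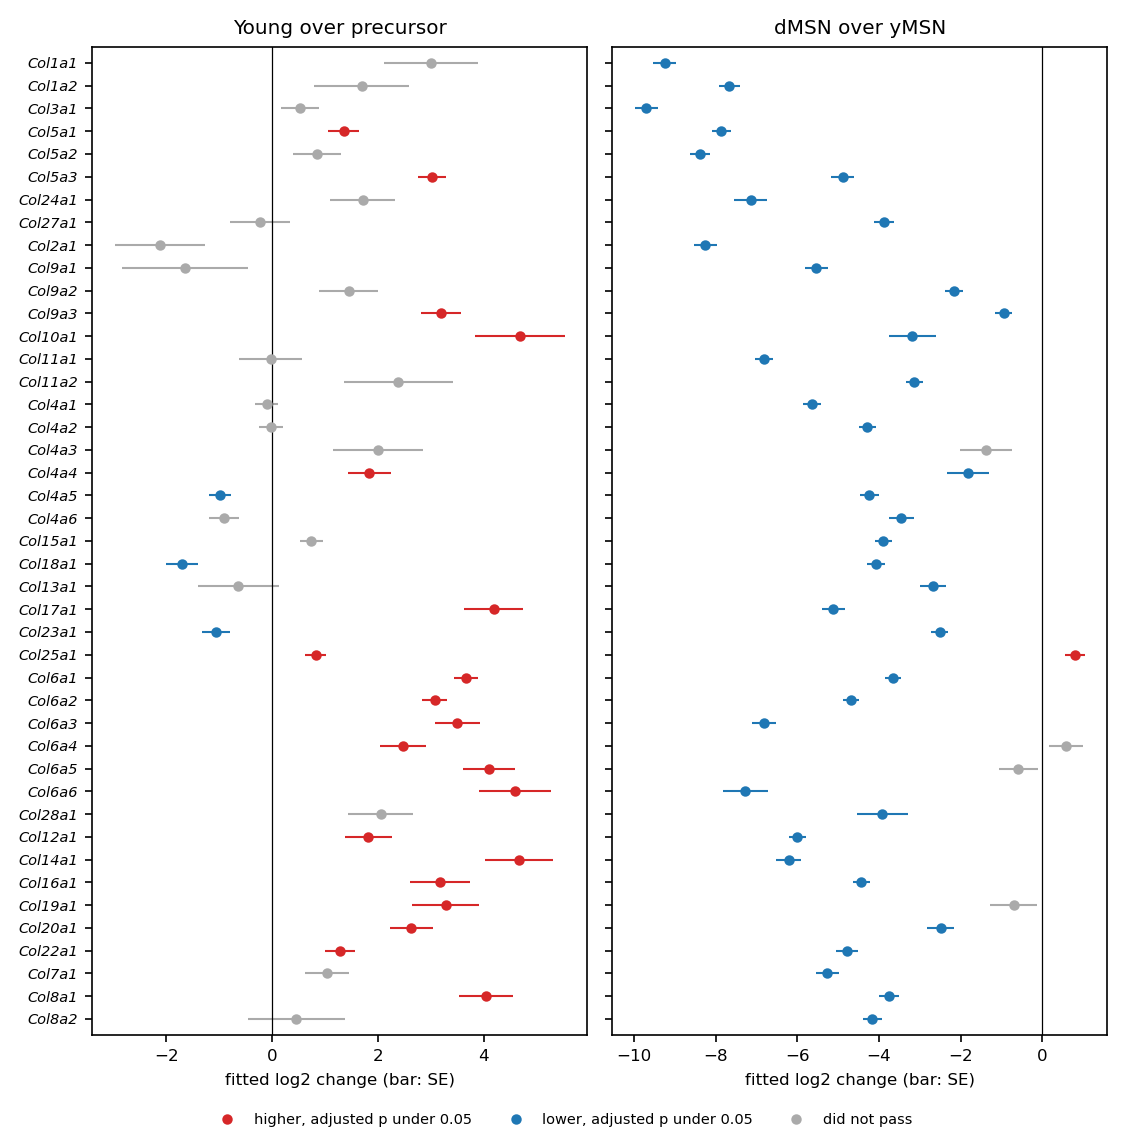
Fitted log2 change of each collagen gene with its SE (bars), for young against precursor at left and dMSN against yMSN at right, coloured by direction where the adjusted p was under 0.05 and grey otherwise. On the left the type VI and fibril-associated rows lie to the right of 0 and the fibrillar and cartilage rows are mostly grey, and on the right all rows but Col25a1 and Col6a4 lie left of 0.

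The dMSN libraries were set against yMSN with 1 mean per cell group, a fit with 1 residual degree of freedom in which the lone yMSN library is assumed to vary like the dMSN pair. This comparison shares the yMSN library with those above. By edgeR's quasi-likelihood test 38 of 43 members fell (88.4%, beside 35.4% of genes), Col25a1 rose (2.33%, beside 32.1%), and Col4a3, Col6a4, Col6a5 and Col19a1 did not pass. The median log2 change was -4.23, beside -0.11 over all genes.

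All 8 fibrillar members fell, with a median of -7.76. Col3a1 averaged 2.21 ± 0.247 CPM over the dMSN pair (SD, n = 2), beside 1837 CPM in yMSN, and fell by 9.70 (SE 0.279, adjusted p = 5.3e-10). Col1a1 averaged 11.1 ± 0.551 CPM over the dMSN pair (SD, n = 2), beside 6722 CPM in yMSN, and fell by 9.25 (SE 0.281, adjusted p = 5.3e-10). The difference between the stages was many times the spread of the dMSN pair for both. All 7 cartilage members fell: Col2a1 fell by 8.25 and Col9a3 fell by 0.94 on the log2 scale. Of 8 basement membrane members 7 fell, with Col4a1, at 12.4 ± 0.945 CPM in dMSN (SD, n = 2) and 613 CPM in yMSN, among them, and it fell by 5.63 (SE 0.225, adjusted p = 2.1e-09). Of 7 type VI and XXVIII members 5 fell, of 6 fibril-associated members 5, of 4 transmembrane members 3, and all 3 type VII and VIII members.

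Col25a1 averaged 33.7 ± 3.38 CPM over the dMSN pair (SD, n = 2), beside 19.4 CPM in yMSN, and rose by 0.80 (SE 0.238, adjusted p = 0.010). Col6a4 had a log2 change of 0.58 and did not pass (adjusted p = 0.231). Members at 10 CPM or more in both dMSN libraries numbered 10, and these were Col1a1, Col1a2, Col4a1, Col4a2, Col6a1, Col6a2, Col9a2, Col9a3, Col11a2 and Col25a1.

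With yCA in place of yMSN, an alternative added after the data were seen, 34 members fell (79.1%, beside 32.6% of genes) and 2 rose (4.65%, beside 34.4%). The 2 were Col11a2, which rose by 1.07 (SE 0.242, adjusted p = 0.0018), and Col6a4, which rose by 1.27 (SE 0.442, adjusted p = 0.023). Col9a2, Col9a3 and Col10a1 also had positive values that did not pass, at 0.15, 0.41 and 0.69, so the decrease of these cartilage chains and of Col11a2 held against yMSN and not against yCA. Col25a1 had 0.51 against yCA and did not pass (adjusted p = 0.072). All 8 members of the fibrillar class fell against either young library, as did the cartilage fibril chains Col2a1 and Col11a1. In the model of region and stage with all 6 libraries, 1 member rose and 35 fell, beside 28.8% and 31.2% of genes. There dMSN is set against a fitted young striatal value that draws on SP, HP and yCA as well as yMSN. In that model without dMSN 1, no member rose by edgeR's quasi-likelihood test and 28 fell, beside 17.0% and 17.7% of genes. Without dMSN 2 the members' counts were the same, beside 17.9% and 19.2% of genes, and the members higher at an unadjusted p under 0.05 numbered 0 without dMSN 1 and 1 without dMSN 2.

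Other tissue markers moved in the same comparison with yMSN. Of 12 skeletal muscle markers 11 fell, as did all 11 meninges and fibroblast markers, which summed to 101 and 105 CPM in dMSN, against 773 in yMSN, 11 of 12 endothelial and pericyte markers and 8 of 9 bone markers, while all 6 oligodendrocyte and astrocyte markers and 7 of 9 striatal neuron markers rose. Their part in the collagen decrease was not tested.

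The chains of one collagen type were then set against each other within a library, as the ratio of their read counts. Gene length cancels between libraries, not within one, so the ratios are read across libraries. Col1a1 over Col1a2 was 0.601 in SP, 0.395 in HP, 1.46 in yMSN, 1.00 in yCA, 0.449 in dMSN 1 and 0.531 in dMSN 2. Its exact 95% counting interval was 1.45 to 1.47 in yMSN, 0.983 to 1.02 in yCA, 0.587 to 0.616 in SP and 0.496 to 0.567 in dMSN 2, so the young libraries lay above the precursors and dMSN beyond counting error. Col4a1 over Col4a2 was 1.63 in SP, 1.70 in HP, 1.48 in yMSN, 1.66 in yCA, 0.524 in dMSN 1 and 0.645 in dMSN 2, nearly level in the precursor and young libraries and far lower in dMSN. Its interval was 0.491 to 0.559 in dMSN 1, 0.604 to 0.688 in dMSN 2 and 1.45 to 1.51 in yMSN.

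Col11a1 over Col11a2 was 10.9 in SP, 13.7 in HP, 1.26 in yMSN, 4.43 in yCA, 0.0946 in dMSN 1 and 0.101 in dMSN 2, with the precursors highest and dMSN more than 10-fold below yMSN. Col9a1 over Col9a3 was 6.96 in SP, 9.75 in HP, 0.656 in yMSN, 0.117 in yCA, 0.0314 in dMSN 1 and 0.0223 in dMSN 2. Col9a2 over Col9a3 was 2.62 in SP, 2.42 in HP, 1.04 in yMSN, 0.537 in yCA, 0.475 in dMSN 1 and 0.421 in dMSN 2. In both type IX ratios the precursors were highest and dMSN lowest, with yMSN above yCA. Col6a3 over Col6a1 was 1.01 in SP, 1.45 in HP, 1.13 in yMSN, 1.03 in yCA, 0.170 in dMSN 1 and 0.0861 in dMSN 2, at or above even in 4 libraries and low in dMSN. Col6a1 over Col6a2 was 0.719 in SP, 0.651 in HP, 1.01 in yMSN, 1.05 in yCA, 1.93 in dMSN 1 and 2.25 in dMSN 2, with dMSN highest. Col5a1 over Col5a2 was 0.988 in SP, 0.932 in HP, 1.10 in yMSN, 1.70 in yCA, 1.64 in dMSN 1 and 1.49 in dMSN 2. Col8a2 over Col8a1 was 16.7 in SP, 20.9 in HP, 2.49 in yMSN, 0.969 in yCA, 2.33 in dMSN 1 and 1.47 in dMSN 2, and Col4a5 over Col4a6 was 3.15 in SP, 3.34 in HP, 2.81 in yMSN, 3.38 in yCA, 2.24 in dMSN 1 and 1.20 in dMSN 2. In dMSN some of these chains rest on few reads, and the dMSN ratios differed from each other beyond their intervals for Col1a1 over Col1a2, Col4a1 over Col4a2, Col4a5 over Col4a6, Col6a1 over Col6a2, Col6a3 over Col6a1, Col9a2 over Col9a3 and Col8a2 over Col8a1.

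**Figure D5:**
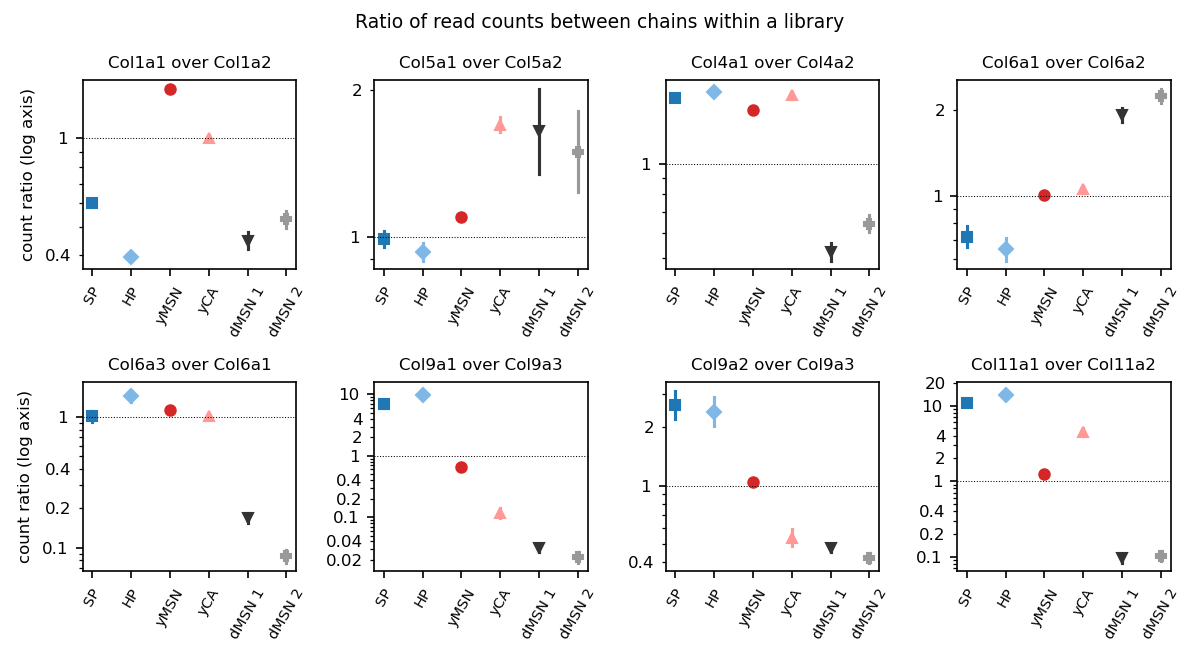
Ratio of read counts between 2 chains of one collagen type in each library (points), with exact 95% counting intervals (bars), on log axes that differ between panels, and a dotted line at 1. Col1a1 over Col1a2 is highest in yMSN at 1.46, while Col4a1 over Col4a2, Col6a3 over Col6a1 and Col11a1 over Col11a2 drop in both dMSN libraries.

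Genes that make, cut, bind or sit beside collagen were counted as lists in the same fits. Over all 19192 genes tested, 21.7% rose and 13.7% fell in young against precursor tissue. In dMSN against yMSN 32.1% of all genes rose and 35.4% fell. At least 2-fold higher in yMSN than in yCA were 11.7% of genes at 1 CPM, and 2.55% were at least 2-fold lower. Of 19 genes of collagen biosynthesis, 1 rose and 1 fell in young against precursor tissue, with a median log2 change of 0.37, and 14 fell and none rose in dMSN against yMSN, with a median of -1.60. Of the same 19, 11 were at least 2-fold higher in yMSN than in yCA. Serpinh1, the chaperone HSP47 that binds folded procollagen, had 521 CPM in SP, 629 in HP, 687 in yMSN, 211 in yCA, 32.6 in dMSN 1 and 27.0 in dMSN 2. It was lower in yCA than in the other young and precursor libraries and lowest in dMSN. P4hb, a subunit of prolyl hydroxylase that also folds other proteins, had 501 CPM in SP, 532 in HP, 489 in yMSN, 301 in yCA, 179 in dMSN 1 and 176 in dMSN 2, a narrower range.

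Of 14 processing and crosslinking genes tested, 5 rose in young tissue and 11 fell in dMSN, with none in the opposite direction in either. Lox, the lysyl oxidase that crosslinks fibrils, had 18.0 CPM in SP, 23.1 in HP, 207 in yMSN, 52.9 in yCA, 0.199 in dMSN 1 and 0.250 in dMSN 2, peaking in yMSN. Pcolce, which helps remove the carboxy propeptide, had 36.5 CPM in SP, 48.7 in HP, 136 in yMSN, 20.9 in yCA, 22.7 in dMSN 1 and 18.7 in dMSN 2. Of 14 degradation genes 5 rose and none fell in young tissue, while 12 fell and 2 rose in dMSN. Mmp2, a gelatinase, had 68.5 CPM in SP, 91.0 in HP, 196 in yMSN, 47.9 in yCA, 5.88 in dMSN 1 and 4.77 in dMSN 2. Timp2, an inhibitor of such proteases, had 70.3 CPM in SP, 83.1 in HP, 213 in yMSN, 187 in yCA, 343 in dMSN 1 and 303 in dMSN 2, highest in dMSN.

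Of 10 collagen receptors none passed in young against precursor tissue by edgeR's quasi-likelihood test, 3 had an unadjusted p under 0.05, and DESeq2 called 2 and limma voom 1. With edgeR's test 5 passed in the fit with 1 mean per cell group, where 29.6% of genes rose and 20.5% fell. With relative log expression scaling 2 passed, where 19.4% of genes rose and 17.6% fell. Of the same 10, 7 fell and 1 rose in dMSN. Itgb1, the beta subunit of the collagen-binding integrins, had 305 CPM in SP, 302 in HP, 314 in yMSN, 260.4 in yCA, 53.7 in dMSN 1 and 58.3 in dMSN 2. Of 15 basement membrane partners, which are laminin chains, nidogens, perlecan and agrin, 5 rose and 2 fell in young tissue, beside 21.7% and 13.7% of genes. All 15 fell in dMSN, beside 35.4% of genes, and none differed by 2-fold between yMSN and yCA. Nid1, which links laminin to type IV collagen, had 183 CPM in SP, 192 in HP, 189.9 in yMSN, 142 in yCA, 4.82 in dMSN 1 and 4.38 in dMSN 2, level in the precursor and young libraries and near the bottom in dMSN, as Col4a1 was. Of 9 fibril proteoglycans 8 rose in young tissue and 8 fell in dMSN, where 1 rose, and 6 were at least 2-fold higher in yMSN than in yCA. Dcn and Lum of this list are also among the meninges and fibroblast markers. Bgn, biglycan, had 69.1 CPM in SP, 53.7 in HP, 411 in yMSN, 127 in yCA, 25.3 in dMSN 1 and 24.1 in dMSN 2.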

How the data were processed

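Each of the 6 deposited tables used here holds 1 library as raw counts for 34620 gene symbols, followed by 5 lines in which the counter sums reads given to no gene. The submitters' processing notes list HTSeq, edgeR, TopHat, TopHat2 2.0.2, Bowtie 1.0.0 among the tools and mm9 and NCBIM37 as builds, and which of them served the RNA counts is not given in the sources used here. Per the labels' protocols, libraries were made with the TruSeq RNA kit from polyA RNA. Relative to gene counts and these 5 lines together, ambiguous reads were 1.38% to 2.01%, reads in no gene 5.34% to 9.81% and reads aligned more than once 17.3% to 27.3%. These lines were left out of all totals of gene counts. Multiply aligned reads that were set aside could lower members with near copies.

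The counts were scaled by TMM in edgeR 4.0.16 (R 4.3.3; factors 0.790 to 1.18) and filtered with filterByExpr, which left 19192 genes and all 43 members. Alternatives used DESeq2 1.42.0 and limma 3.58.1. The quasi-likelihood F test was used with Benjamini-Hochberg adjustment at 0.05 over all genes tested, and the SE is the change divided by the square root of F. The models are those named with each result. Pairs of single libraries were not tested. A prior count of 2 was added before taking their log2 ratio, and intervals are exact 95% binomial ones (scipy 1.17.1), which cover counting error only. A count of 3 corresponded to 0.0249 to 0.0861 CPM. The fits and intervals were tested on simulated data. With the spread of the dMSN pair, 51.0% of 2-fold changes were recovered in young against precursor and 19.9% in dMSN against yMSN. Of 4-fold changes 81.4% and 78.6% were recovered, so a member that did not pass may still differ. The simulated data held no difference between the regions in the step from precursor to young. In the real fit of young against precursor that difference counts as spread, so its recovery was not measured with it present. The dMSN libraries were compared as possible duplicates, and a chi-square of 138 per degree of freedom shows that their counts differ far beyond sampling noise. In the fit with 1 mean per cell group the p-values rest on the spread between the dMSN libraries, which may be technical. In the model of region and stage they rest as well on how far the regions differ in their step from precursor to young. Without a dMSN library they rest on that difference alone.

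The members, the gene lists and the rule for named genes were chosen with earlier results of these data known. All members may be named, with full values for those at 10 CPM in any library. Of each other list up to 6 genes, ranked by their highest level, may be named, and the sex-linked list in full. Upstream sequences come from a RefSeq promoter table of GRCm38.p6, matched by symbol.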

Additional observations from a re-analysis of the deposited data

Results flagged for a closer look

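Of the 41 members at 1 CPM in both pairs, 10 (24.4%) were higher in yMSN than in SP and lower in yCA than in HP with counting intervals clear of 0 both times, however small the difference, beside 5.52% of the 14827 genes at that level. The difference between the regions was not tested. Among fibrillar chains the log2 ratio of Col1a2 was 3.43 for yMSN over SP and -0.035 for yCA over HP, that of Col3a1 1.21 for yMSN over SP and -0.15 for yCA over HP, that of Col5a2 1.77 for yMSN over SP and -0.067 for yCA over HP and that of Col27a1 0.91 for yMSN over SP and -1.37 for yCA over HP. The first 3 of these had values near 0 in the hippocampal pair. Col9a1, a type IX chain, had 0.47 for yMSN over SP and -3.87 for yCA over HP, and Col11a1, a type XI chain, had 1.21 for yMSN over SP and -1.26 for yCA over HP. The type IV chains had small values both ways, Col4a1 with 0.22 for yMSN over SP and -0.42 for yCA over HP and Col4a2 with 0.35 for yMSN over SP and -0.39 for yCA over HP. Col8a2 had 2.22 for yMSN over SP and -1.33 for yCA over HP, and the transmembrane Col13a1 had 0.77 for yMSN over SP and -2.06 for yCA over HP.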

How the results depend on the processing

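No paired analysis was possible because the groups share fewer than 2 replicate numbers. In young against precursor, the fit with 1 mean per cell group called 37 members (31 higher, 6 lower), beside 29.6% and 20.5% of genes. DESeq2 called 5 lower, beside 19.7% of genes. Leaving out each library in turn gave 16 to 38 members (14 to 34 higher, 2 to 9 lower) and 3590 to 7355 genes (2387 to 4585 higher, 1203 to 3074 lower). The log2 change turned its sign for 10 members as libraries were left out, with ranges of Col1a2 -0.038 to 3.42, Col3a1 -0.16 to 1.21, Col5a2 -0.071 to 1.77, Col8a2 -1.33 to 2.21, Col11a1 -1.26 to 1.20, Col13a1 -2.08 to 0.76, Col27a1 -1.37 to 0.91, Col4a1 -0.43 to 0.21, Col4a2 -0.39 to 0.35 and Col9a1 -3.89 to 0.47, and limma voom gave Col11a1 0.051 and Col27a1 0.0078. Of these members none passed with all 6 libraries. These are the 10 members flagged above as higher in yMSN than in SP and lower in yCA than in HP. Without HP or yCA the change is that of yMSN over SP, and without SP or yMSN that of yCA over HP. Their turns of sign with libraries left out follow from this and are no separate check. In dMSN against yMSN, the model of region and stage called 11504 genes against 12948 with 1 mean per cell group, which leaves no residual degree of freedom once a dMSN library is left out. In the first of these models, leaving out dMSN 1 or dMSN 2 gave 6609 to 7073 genes (3239 to 3413 higher, 3370 to 3660 lower), and 0 members higher both times. With yCA in place of yMSN 2 members were higher, beside 34.4% of genes, and Col10a1 (0.69), Col11a2 (1.07), Col9a2 (0.15) and Col9a3 (0.41) turned positive. Where the higher library had to reach 5 CPM, 0 members were 2-fold lower in yMSN than in yCA, and 11 were 2-fold higher in yCA than in HP. The members lost from these counts lie under 5 CPM in both libraries. The share of all genes was not counted at 5 CPM, so these counts cannot be read against it. The cause of the other changes was not tested. Relative log expression moved the median of all genes in young against precursor to -0.02, against 0.10 with TMM. With it 21 members were higher and 4 lower, beside 19.4% and 17.6% of genes, and 52.4% of all calls were higher. Depth limits the lowest members, such as Col10a1 with 2 reads in SP and 1 in HP.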
